A study of Mus musculus with 12 samples.

Results

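The genes described here repair DNA interstrand crosslinks, the lesion that joins both strands of the double helix, and include the Fanconi anemia genes. The set holds 39 genes, chosen by name for this role with earlier results of these data known. All 39 of them were in the table of 19246 genes measured by RNA sequencing of mouse heart. Of the 39, 36 had enough counts to be tested in edgeR, and the other 3 (Fancd2, Fanci and Eme1) were left out by the filter on low counts. The filter kept 14687 genes in all. By role, the set holds 11 genes of the Fanconi core complex and its partners, 4 of the FANCD2-FANCI clamp and its deubiquitinase, 7 of homologous recombination, 7 nucleases and their scaffold, 4 of translesion synthesis, 5 of checkpoint signalling and 1 of direct reversal.

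There were 12 libraries in 4 groups of 3. Control mice had no treatment. The AOS group was given alginate oligosaccharides (AOS), short sugar chains from brown algae, at 10 mg/kg over 5 weeks. The busulfan group was given busulfan at 40 mg/kg in a single dose, and the last group had that same dose of busulfan followed by 5 weeks of AOS at 10 mg/kg. The labels name the strain as IRC mouse for every group and give no age. Nothing in them tells separate hearts, pooled hearts or repeat libraries of 1 heart apart, and the p-values below therefore describe differences among libraries, which may be technical.

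Busulfan is a bifunctional alkylating drug, and the crosslinks such drugs form block both replication and transcription. When a replication fork meets a crosslink, the Fanconi core complex attaches ubiquitin to the FANCD2-FANCI clamp, nucleases cut the crosslink loose on a single strand, a translesion polymerase copies past the remnant, and homologous recombination rebuilds the other duplex. Many genes of this pathway are transcribed mainly in cells that copy their DNA, and most cardiomyocytes of the adult heart do not divide.

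Library totals lay between 9929772 and 13620815 estimated counts. The samples carry the tissue label Cells, whereas the extraction protocol names heart. The 8 cardiomyocyte markers examined averaged between 12.05 and 13.30 log2 CPM (counts scaled to library totals adjusted by TMM factors) in every library. Transcripts of neighbouring tissues varied more: the atrial myosin gene Myl7 ranged from 6.34 to 5560 FPKM (fragments scaled to transcript length and library total). The airway gene Scgb1a1 was highest in AOS replicate 2, at 4150 FPKM beside 232 in AOS replicate 3. Replicate 1 of busulfan plus AOS had 1030 FPKM of Scgb1a1, and its Myl7 was at 5490 FPKM beside 5560 in AOS replicate 2. The mean of the atrial markers was 6.83 to 8.66 log2 CPM with busulfan plus AOS and 4.01 to 6.92 in controls, and that of the macrophage markers was 4.88 to 5.54 and 4.20 to 4.27. Adipocyte markers, 10 of 10 with a higher fitted mean in the main effect of busulfan (8 at an unadjusted p under 0.05, 0 called in edgeR), had a median log2 fold change of 2.93 there and averaged -0.15 to 2.86 log2 CPM in control, 1.34 to 5.57 with AOS, 0.96 to 6.86 with busulfan and 5.53 to 6.77 with busulfan plus AOS. Of 6 lung epithelium markers 5 had a lower fitted mean (1 called), with a median of -3.52, and the means were 0.74 to 1.43 log2 CPM in control, -0.35 to 5.66 with AOS, -2.16 to -1.47 with busulfan and -0.71 to 3.88 with busulfan plus AOS. All 8 cardiomyocyte markers had a lower fitted mean (0 called, median -0.33). Macrophage markers were higher in 10 of 10 (0 called, median 0.43), and atrial markers had a median of -0.10. The part of these tissue differences in the comparisons below was not tested. In such bulk RNA, fewer cells of a type and less RNA per cell cannot be told apart.

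The windows around the start sites of 4 genes are shown because the results below turn on them: Fancl had the highest level, Wdr48 the smallest p after busulfan alone, Brip1 the smallest p over both busulfan groups, and Rad51c the largest fold change after busulfan plus AOS. Each window runs from 250 bases before to 50 bases after the annotated start, 5′ to 3′ on the gene's own strand, from RefSeq (GRCm38.p6). They are chr11:26386834-26387133 on the plus strand for Fancl, chr9:119894645-119894944 on the plus strand for Wdr48, chr11:86201144-86201443 on the minus strand for Brip1 and chr11:87404905-87405204 on the minus strand for Rad51c. Capitals mark matches, on either strand, to the motifs named after the sequences.
Fancl: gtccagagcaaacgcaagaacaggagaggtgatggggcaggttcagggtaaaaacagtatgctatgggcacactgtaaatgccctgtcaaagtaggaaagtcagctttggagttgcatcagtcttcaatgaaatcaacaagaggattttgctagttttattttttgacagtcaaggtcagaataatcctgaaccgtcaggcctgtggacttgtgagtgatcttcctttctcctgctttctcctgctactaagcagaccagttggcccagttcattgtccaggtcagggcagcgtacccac
Wdr48: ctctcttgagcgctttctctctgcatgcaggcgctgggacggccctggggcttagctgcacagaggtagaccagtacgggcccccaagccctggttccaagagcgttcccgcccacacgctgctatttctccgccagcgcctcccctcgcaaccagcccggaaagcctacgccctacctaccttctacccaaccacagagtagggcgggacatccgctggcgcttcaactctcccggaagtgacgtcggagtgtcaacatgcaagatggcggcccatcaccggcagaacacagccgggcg
Brip1: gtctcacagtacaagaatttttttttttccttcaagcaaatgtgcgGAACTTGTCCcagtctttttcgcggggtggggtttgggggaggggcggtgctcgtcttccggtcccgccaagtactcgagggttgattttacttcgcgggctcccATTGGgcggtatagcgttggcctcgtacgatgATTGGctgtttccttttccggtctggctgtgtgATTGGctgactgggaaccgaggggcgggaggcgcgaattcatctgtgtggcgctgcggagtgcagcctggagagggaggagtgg
Rad51c: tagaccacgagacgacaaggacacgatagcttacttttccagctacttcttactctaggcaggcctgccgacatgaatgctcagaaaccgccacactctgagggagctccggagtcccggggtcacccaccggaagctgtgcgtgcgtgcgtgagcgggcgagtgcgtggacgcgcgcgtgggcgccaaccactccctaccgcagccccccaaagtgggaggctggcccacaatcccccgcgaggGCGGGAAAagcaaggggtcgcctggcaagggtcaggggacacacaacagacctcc

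The motifs searched were an E2F type (TTTCCCGC, TTTGGCGC, TTTCGCGC or TTTGCCGC), the cell cycle homology region (CHR), CCAAT, and the p53 half-site by its usual consensus. The CHR was searched as TTTGAA. Its variant, spelled TTCGAA, was counted with it. A match says nothing of binding. RefSeq windows were matched for 35 of the 39 genes, which gave 39 windows, and Fancd2, Rev3l, Usp1 and Xrcc2 had none in the table. An E2F-type match was found in 5 of these windows (12.8%, against 2.26% of all 32851 windows). They belong to 4 of the 35 genes: Brca2, Chek2, Fancg and Rad51c. The Rad51c window shown above holds a single such match, GCGGGAAA read on the opposite strand. CCAAT was found in 46.2% of the windows (37.4% of all), CHR in 10.3% (19.2% of all) and the p53 half-site in 7.69% (8.36% of all). The Brip1 window holds 3 CCAAT matches, all on the opposite strand, and 1 p53 half-site, and the Fancl and Wdr48 windows hold no match to any of these letters. The Fancl window has 47.0% G and C, against a median of 58% over the windows of the set, and the Wdr48 window 63.7%. Over all windows the median was 52.7%, and the part of G and C content in the motif shares was not tested.

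The first question was how strongly the heart transcribes these genes. The median of their mean FPKM was 1.81 over all 39, against 3.62 over all 19246 genes, and 1.87 over the 36 tested members, against 7.05 over the tested genes. A mean under 1 FPKM was found for 15 of the 39 (38.5%, beside 35.2% of all genes) and for 12 of the 36 tested (33.3%, beside 15.3% of the tested genes). Of the 39, 20 lay between 1 and 10 FPKM and 4 at 10 or more. Their summed level was 132 to 153 FPKM in a library, and they made up 0.0405% to 0.0535% of all counts.

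The catalytic subunit of the core complex was by far the most abundant member. Fancl, the ubiquitin ligase of the pathway (gene 67030, GRCm38 chromosome 11, 26387084 to 26471883), was at 24.93, 22.44 and 28.41 FPKM in control, 30.82, 29.63 and 28.37 with AOS, 23.14, 28.97 and 30.97 with busulfan and 31.12, 25.76 and 37.30 with busulfan plus AOS. The 4 groups overlapped, and in each library Fancl alone gave between 16.9% and 24.3% of the summed FPKM of the 39 genes. Its lowest library (22.44 FPKM) lay above the highest library of the next gene, Ercc1 (20.58 FPKM). Of the 38 neighbouring pairs in the order of levels, only this one and Rev1 over Faap100 (lowest Rev1 5.46, highest Faap100 4.78 FPKM) were separated in all 12 libraries. Fancl is also the gene with the most counts, and 2 features of its annotation bear on its level: 13.7% of its exon bases are shared with Vrk2 on the opposite strand, and the length implied by its counts and FPKM (median 4650 bases) is above that of its longest GENCODE transcript (2724 bases). An implied length above the longest transcript was also found for Atm (11890 and 9819 bases), Fan1 (4179 and 3460), Fance (2596 and 2193) and Ercc4 (5252 and 5130). How far the deposited levels depend on these features was not tested.

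**Figure D1:**
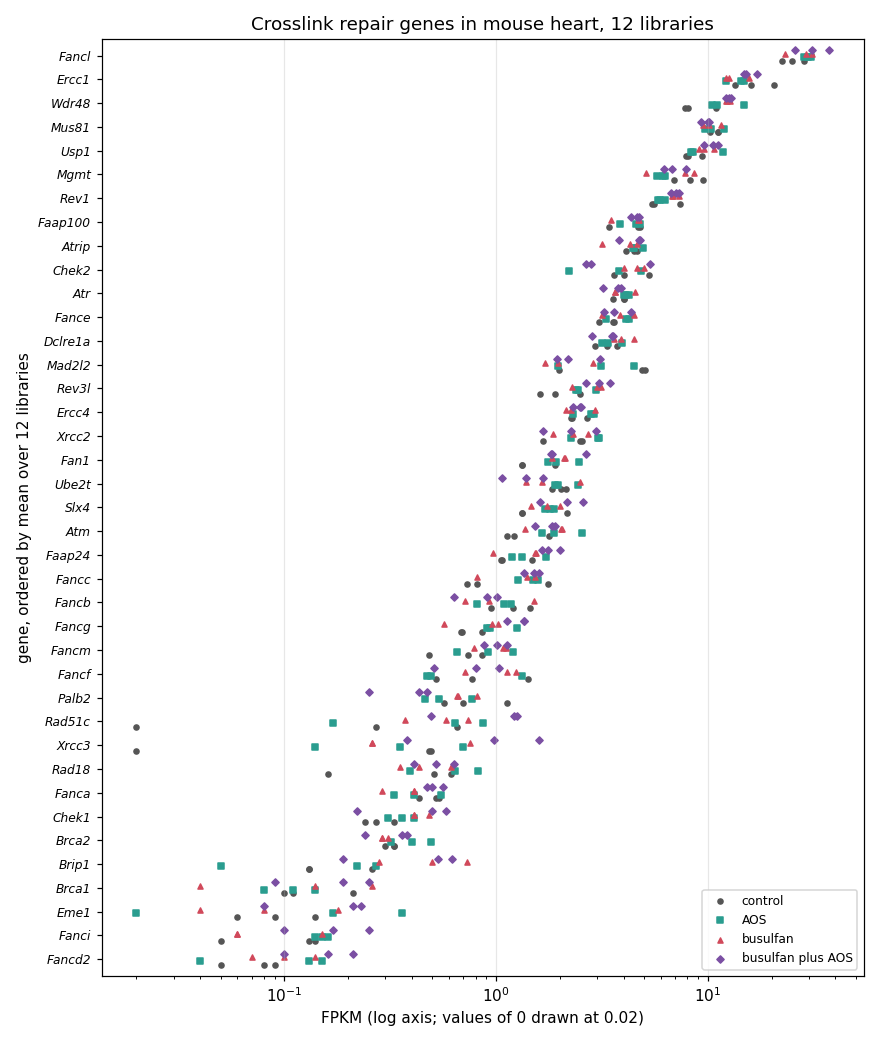
FPKM of the 39 crosslink repair genes (vertical axis, ordered by the mean over 12 libraries) in each library, on a log axis, with a symbol for each group and values of 0 drawn at 0.02. Fancl lies at 22.44 FPKM or above in every library, 15 genes have a mean under 1 FPKM, and the groups overlap for most genes.

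The clamp on which the core complex acts was at the opposite end of the order. Fancd2 was at 2 to 13 counts in a library (mean 0.110 FPKM), Fanci at 2.1 to 14.9 counts (mean 0.130 FPKM), and Eme1, a partner of the nuclease Mus81, at 0 to 6 counts (mean 0.137 FPKM). Brca1, Brip1 and Brca2, which act in homologous recombination, followed at 0.143, 0.326 and 0.337 FPKM. The spread between Fancd2 libraries was no larger than counting gives: its coefficient of variation within groups was 38.4%, and counting alone gives 39.5% at its mean of 6.42 counts. Fancd2, Fanci and Eme1 entered a test only in the alternative without a filter, in which 0 of the 39 genes were called in any comparison.

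Within a complex, partners were not equally abundant. Usp1, the deubiquitinase that reverses the clamp's modification, and its activator Wdr48 were at 9.55 and 11.5 FPKM, far above the clamp subunits they act on. Mus81 was at 10.4 FPKM while its partner Eme1 was at 0.137. The related gene Eme2, which is outside the set, was at 3.49 to 4.91 FPKM over the libraries. The excision nuclease pair differed as well, with Ercc1 at 14.9 and Ercc4 at 2.49 FPKM. Of the translesion enzymes, the scaffold polymerase Rev1 was at 6.54 FPKM, Mad2l2 and the catalytic subunit Rev3l at 2.94 and 2.61, and Rad18, which marks the sliding clamp PCNA for bypass, at 0.507. Among the checkpoint genes, Atrip (4.37), Chek2 (4.01) and Atr (3.88 FPKM) overlapped over the libraries, while Chek1 was at 0.377. Rev1 shares 26.6% of its exon bases with Eif5b on the opposite strand, so its level is uncertain if the counting ignored strand, which is not given in the sources used here. Atrip shares 16.0% of its exon bases with Trex1 on the same strand, and how far its level depends on this was not tested. Over the whole set, 19 of 39 genes share some exon bases with another GENCODE gene, and Rev1 is the only one above 20%.

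The central comparison asked whether the heart changed these genes after busulfan. In the fit over all 12 libraries, none of the 36 tested crosslink repair genes passed an adjusted p of 0.05 in any of 7 comparisons (edgeR's quasi-likelihood test, Benjamini-Hochberg over all 14687 genes), and DESeq2 called 0 as well. The share of all genes that edgeR called was itself small: 0% for busulfan against control (0 genes), 0% for AOS against control, 0.306% for the combined treatment against control (45 genes), 0% for the combined treatment against busulfan, 0.0204% for it against AOS (3 genes), 0.157% for the main effect of busulfan, both busulfan groups against both groups without it (23 genes), and 0% for the interaction. DESeq2 called more of all genes: 0.354%, 0.0545%, 16.3%, 0.361%, 1.06%, 4.01% and 0.034% in the same order. At 16.3%, in busulfan plus AOS against control, 0 of the 35 crosslink repair genes that DESeq2 gave an adjusted p were called.

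At an unadjusted p under 0.05 the counts were also near or under the background. After busulfan alone 3 of 36 genes (8.33%) were at such a p, all 3 higher, beside 10.6% of all genes (6.69% higher and 3.92% lower). For busulfan plus AOS against control there were 5 (13.9%, 3 higher and 2 lower), beside 32.8% (16.7% higher and 16% lower). For the main effect of busulfan there were 3 (8.33%, 2 higher and 1 lower), beside 17.2% (10.3% higher and 6.89% lower). AOS against control gave 3 (8.33%, beside 6.92%), the combined treatment against busulfan 2 (5.56%, beside 10.2%), the combined treatment against AOS 0 (beside 9.42%) and the interaction 1 (2.78%, beside 2.94%).

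In the main effect of busulfan 19 of the 36 genes had a higher and 17 a lower mean, with a median log2 fold change of 0.03 beside 0.00 over all genes (50.3% of all genes higher). After busulfan alone 21 were higher and 15 lower (median 0.08, all genes 0.01, with 51% of all genes higher), and after busulfan plus AOS 19 and 17 (median 0.09, all genes 0.04, with 53% of all genes higher). In the interaction 12 were higher and 24 lower (33.3% higher, beside 46.1% of all genes), with a median of -0.10 beside -0.03. Scaling by library totals, with no TMM factor, moved these counts more than DESeq2 size factors did: the median of all genes went from 0.04 to 0.23 for busulfan plus AOS against control, that of the set to 0.28, and the count of genes with a higher mean to 26 of 36. For 29 of the 36 genes the 95% interval of the main effect lay within 1 log2 unit on either side of no change, a 2-fold change (78.6% of all genes). The 7 with wider intervals were Brip1, Palb2, Rad51c, Brca1, Mad2l2, Xrcc3 and Ube2t, most of them low in counts. For busulfan against control and for busulfan plus AOS against control, 25 and 23 of 36 intervals lay within that range (70.1% and 60% of all genes).

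**Figure D2:**
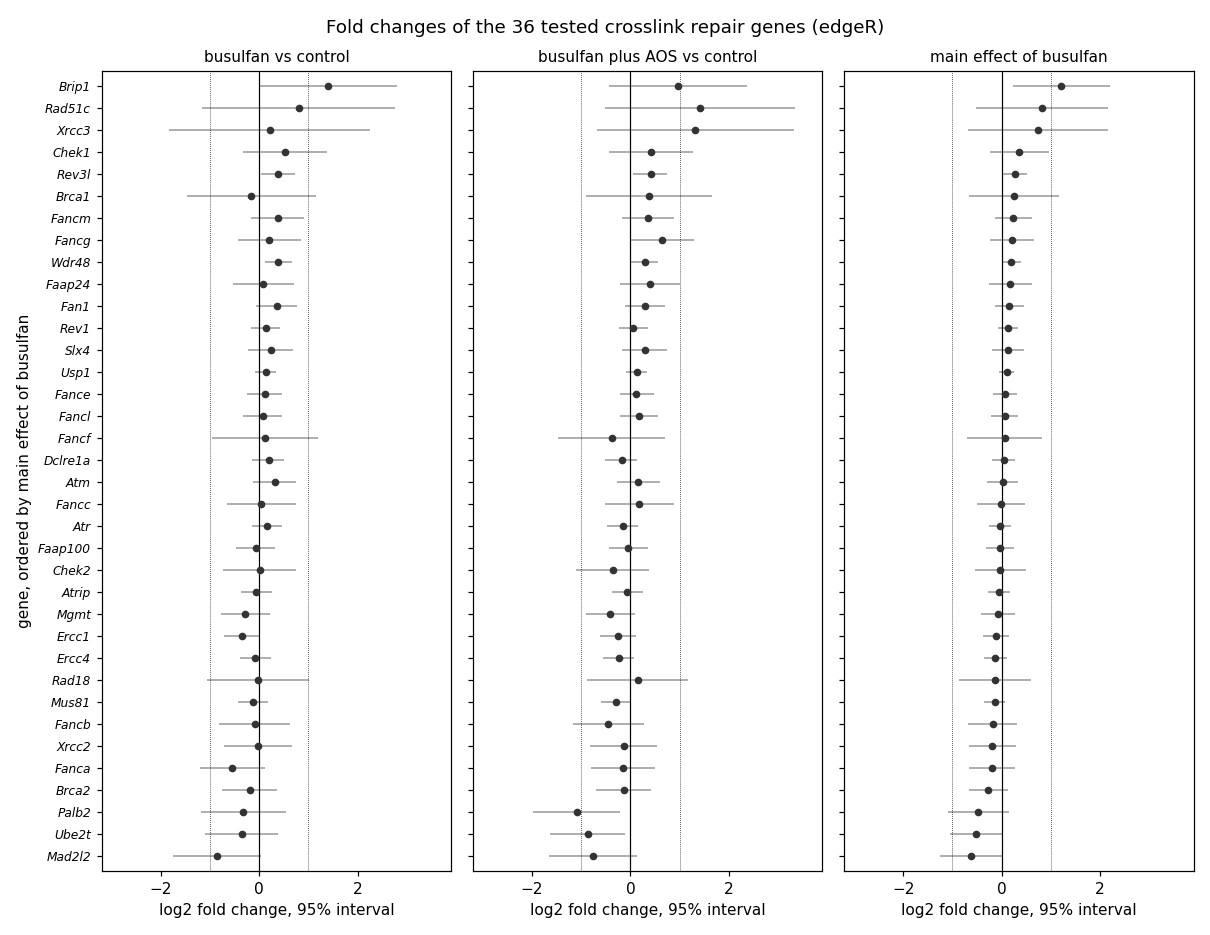
Fitted log2 fold changes of the 36 tested genes (points) with 95% intervals (bars) for busulfan against control, busulfan plus AOS against control and the main effect of busulfan, ordered by the last. Dotted lines mark a 2-fold change. Fold changes lie on both sides of 0, and the widest intervals belong to low-count genes such as Rad51c, Xrcc3 and Brip1.

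Among the core complex genes and their partners, none of 11 passed in any comparison. Ube2t, the ubiquitin-conjugating enzyme that works with Fancl, was at 1.84, 2.03 and 2.14 FPKM in control, 1.89, 1.95 and 2.43 with AOS, 2.49, 1.39 and 1.65 with busulfan and 1.07, 1.39 and 1.67 with busulfan plus AOS. All 3 libraries of busulfan plus AOS lay below all control and all AOS libraries, while those of busulfan alone spread across the control range. Its log2 fold change for busulfan plus AOS against control was -0.87 ± 0.34 (SE, adjusted p = 0.118 in edgeR). Fancg, a scaffold subunit, was at 0.86, 0.69 and 0.68 FPKM in control, 0.94, 1.25 and 0.91 with AOS, 0.57, 0.96 and 1.02 with busulfan and 1.35, 1.35 and 1.13 with busulfan plus AOS. The busulfan plus AOS libraries were above all control and all busulfan libraries, and the log2 fold change against control was 0.65 ± 0.29 (edgeR adjusted p = 0.144). Fancl itself had a log2 fold change of 0.17 ± 0.18 in that comparison (95% interval -0.22 to 0.56, edgeR adjusted p = 0.509), from 0.01 without replicate 3 of busulfan plus AOS to 0.29 without control replicate 3.

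The deubiquitinase activator Wdr48 (gene 67561, chromosome 9, 119894895 to 119926586) had the smallest p of the set after busulfan alone. It was at 7.84, 8.10 and 10.90 FPKM in control, 10.47, 14.76 and 11.05 with AOS, 12.13, 12.35 and 12.69 with busulfan and 12.80, 12.53 and 12.23 with busulfan plus AOS. In FPKM both busulfan groups lay above all control libraries and varied little among themselves. The AOS group reached across both, with AOS replicate 2 the highest of all 12 in FPKM. In CPM the gap nearly closed, with control replicate 3 and busulfan plus AOS replicate 1 both at 42.6 after rounding. The 2 busulfan groups ran from 42.6 to 48.3 CPM. Its log2 fold changes against control were 0.39 ± 0.12 (busulfan), 0.30 ± 0.12 (AOS) and 0.30 ± 0.12 (busulfan plus AOS), with edgeR adjusted p of 0.432, 0.642 and 0.132. These comparisons share the control libraries, of which replicates 1 and 2 were the low ones, and without control replicate 3 the AOS and the busulfan plus AOS values were both 0.46. The interaction was -0.39 ± 0.18 (edgeR adjusted p = 1), and 14.9% of its exon bases are shared with Gorasp1 on the opposite strand. Its partner Usp1 varied least within groups of all 39 genes, with 6.7% variation beside 5.01% from counting and a main effect of 0.11 on the log2 scale (95% interval -0.05 to 0.26).

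The homologous recombination genes had the widest range of fold changes, and none of 7 passed. Brip1, a helicase that binds BRCA1, was at 0.26, 0.13 and 0.13 FPKM in control, 0.05, 0.22 and 0.27 with AOS, 0.28, 0.50 and 0.73 with busulfan and 0.62, 0.53 and 0.19 with busulfan plus AOS. The busulfan libraries lay just above the control range, and replicate 3 of busulfan plus AOS lay within it. In counts this is 3 to 45 per library. Its log2 fold change was 1.40 ± 0.63 after busulfan alone (95% interval 0.00 to 2.80) and 1.21 ± 0.45 in the main effect (0.23 to 2.20), with edgeR adjusted p of 0.471 and 0.223. Leaving out each library in turn gave a main effect between 1.00 and 1.48.

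Palb2, which links BRCA1 to BRCA2, had its lowest values with busulfan plus AOS. It was at 0.57, 0.70 and 1.12 FPKM in control, 0.46, 0.77 and 0.54 with AOS, 0.81, 0.66 and 0.65 with busulfan and 0.25, 0.43 and 0.47 with busulfan plus AOS. The busulfan plus AOS libraries were below all control and all busulfan libraries. The log2 fold change against control was -1.09 ± 0.40 (95% interval -1.98 to -0.21), with an edgeR adjusted p of 0.106 that reached 0.0753 in DESeq2, the smallest adjusted p of any gene of the set in any comparison and setting tried. Against busulfan alone it was -0.77 ± 0.40 (edgeR adjusted p = 0.469), and -0.49 without replicate 1 of busulfan plus AOS.

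Rad51c and Xrcc3 had wide estimates, with low counts and with libraries of a group that varied more than counting gives. Rad51c was at 0.65, 0.27 and 0.00 FPKM in control, 0.17, 0.87 and 0.64 with AOS, 0.58, 0.37 and 0.74 with busulfan and 1.25, 0.49 and 1.22 with busulfan plus AOS. In counts it ranged from 0 in control replicate 3 to 36.1, and the groups overlapped. Its log2 fold change for busulfan plus AOS against control was 1.42 ± 0.88 (95% interval -0.52 to 3.35, edgeR adjusted p = 0.27). It was 0.83 without control replicate 3, which held no read of it, and 2.29 without control replicate 1. Xrcc3 was at 0.00, 0.48 and 0.49 FPKM in control and 1.60, 0.38 and 0.98 with busulfan plus AOS, also overlapping, with a log2 fold change of 1.32 ± 0.91 (edgeR adjusted p = 0.317), and 0.77 without control replicate 1. Variation within groups was 62.4% for Rad51c and 68.2% for Xrcc3, beside 24.9% and 25.3% from counting. The mean log2 CPM of the 7 homologous recombination genes was 0.61 to 0.74 in control, 0.22 to 1.08 with AOS, 0.93 to 1.04 with busulfan and 1.03 to 1.15 with busulfan plus AOS, given as a description with no test. This mean includes genes with 0 counts in a control library. By gene, 3 of 7 were higher after busulfan alone (median log2 fold change -0.03, 51% of all genes higher). In the main effect 4 of 7 were higher (median 0.26, 50.3% of all genes higher).

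**Figure D3:**
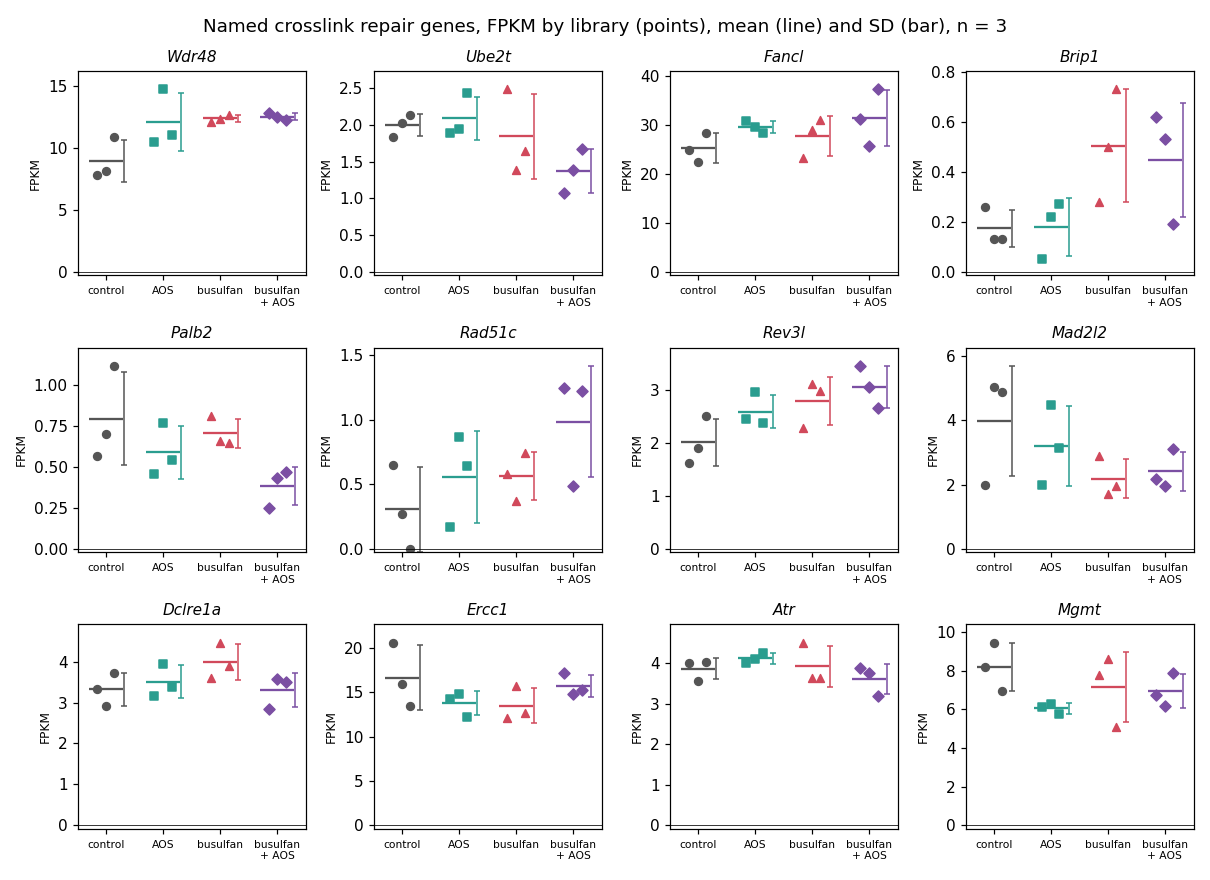
FPKM of 12 named genes in each library (points), with the mean (line) and SD (bar, n = 3) of each group; axes are linear and start near 0. Wdr48 is at 12.13 to 12.80 FPKM in both busulfan groups against 7.84 to 10.90 in control, Palb2 is lowest with busulfan plus AOS (0.25 to 0.47), and Mgmt is at 5.75 to 6.30 with AOS against 6.93 to 9.44 in control. In CPM, not drawn here, Wdr48 is at 42.6 in both control replicate 3 and busulfan plus AOS replicate 1. The lower SD bar of Rad51c in control reaches below 0.

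Of the nucleases, 0 of 6 tested passed in any comparison. Their fold changes in the main effect lay between -0.14 and 0.16 on the log2 scale, and all 6 intervals lay within a 2-fold change. Dclre1a, an exonuclease that trims past the unhooked crosslink, was at 3.33, 2.92 and 3.71 FPKM in control, 3.17, 3.95 and 3.39 with AOS, 3.59, 4.46 and 3.89 with busulfan and 2.84, 3.57 and 3.51 with busulfan plus AOS. The last group lay just below the busulfan group (highest 3.57, lowest 3.59 FPKM), with a log2 fold change of -0.37 ± 0.15 (edgeR adjusted p = 0.469). Ercc1 was at 20.58, 15.96 and 13.42 FPKM in control, 14.29, 14.84 and 12.22 with AOS, 12.15, 15.72 and 12.64 with busulfan and 17.13, 14.84 and 15.21 with busulfan plus AOS. Control replicate 1 was the highest and the groups overlapped; the log2 fold change of AOS against control was -0.38 ± 0.17 (edgeR adjusted p = 0.642), and it was -0.16 without control replicate 1.

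Translesion synthesis held a gene with higher and a gene with lower means after busulfan. Rev3l, the catalytic subunit of polymerase zeta, was at 1.62, 1.90 and 2.50 FPKM in control, 2.44, 2.95 and 2.38 with AOS, 2.28, 3.12 and 2.98 with busulfan and 3.45, 3.06 and 2.65 with busulfan plus AOS. Controls 1 and 2 were the lowest libraries, and all groups but the last overlapped the control range in FPKM; in CPM the last overlapped it too. The main effect of busulfan was 0.28 ± 0.11 (95% interval 0.03 to 0.52, edgeR adjusted p = 0.25), and against control the log2 fold change of busulfan plus AOS was 0.41 ± 0.16 (edgeR adjusted p = 0.116). Mad2l2, the subunit that joins Rev3l to Rev1, was at 1.99, 5.06 and 4.89 FPKM in control, 1.97, 4.47 and 3.14 with AOS, 2.88, 1.71 and 1.96 with busulfan and 2.18, 1.94 and 3.11 with busulfan plus AOS. Replicate 1 of control and of AOS lay within the range of the busulfan groups, and the main effect was -0.63 ± 0.29 (95% interval -1.26 to 0.00, edgeR adjusted p = 0.291).

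Of the 5 checkpoint genes none passed in any comparison. In the main effect of busulfan their log2 fold changes lay between -0.05 and 0.36, and all 5 intervals lay within a 2-fold change. Atr, the kinase that senses single-stranded DNA at stalled forks, was at 4.0, 3.57 and 4.04 FPKM in control, 4.0, 4.12 and 4.26 with AOS, 4.51, 3.63 and 3.64 with busulfan and 3.88, 3.77 and 3.19 with busulfan plus AOS. In FPKM all groups overlapped but AOS and busulfan plus AOS, and against busulfan alone the log2 fold change of busulfan plus AOS was -0.32 ± 0.14 (edgeR adjusted p = 0.469), and -0.20 without replicate 3 of busulfan plus AOS. Atm, the kinase of the response to double-strand breaks, was at 1.12, 1.21 and 1.77 FPKM in control, 1.87, 2.54 and 1.64 with AOS, 1.37, 2.03 and 2.04 with busulfan and 1.90, 1.83 and 1.53 with busulfan plus AOS, with an interaction of -0.59 ± 0.28 (edgeR adjusted p = 1). Chek1, a target of Atr, was higher without overlap after busulfan alone in CPM, with a log2 fold change of 0.53 ± 0.39 at 8 to 24 counts per library.

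Mgmt removes alkyl groups from guanine directly, without cutting DNA. It was at 8.22, 9.44 and 6.93 FPKM in control, 6.11, 6.30 and 5.75 with AOS, 7.78, 8.61 and 5.11 with busulfan and 6.77, 6.18 and 7.91 with busulfan plus AOS. The AOS libraries were all below the control libraries, with a log2 fold change of -0.53 ± 0.22 (95% interval -1.03 to -0.04, edgeR adjusted p = 0.642). The main effect of busulfan on Mgmt was -0.08 ± 0.16 (95% interval -0.42 to 0.27).

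Groups without overlap in CPM were counted for the whole set. After busulfan alone 3 genes lay above control in every library (Brip1, Chek1 and Wdr48, beside 8.82% of all genes) and 2 below (Brca2 and Fanca, beside 7.95%). With AOS, 0 lay above (beside 5.25%) and 2 below (Mgmt and Palb2, beside 4.73%). For busulfan plus AOS against control 2 lay above (Fancg and Wdr48, beside 20.1%) and 5 below (Ercc4, Fancb, Mus81, Palb2 and Ube2t, beside 20%). Over both busulfan groups against both groups without it, 6 against 6 libraries, 0 genes were separated in either direction, beside 0.776% and 0.456%. For busulfan plus AOS against busulfan 3 lay above (Faap24, Fanca and Fancg, beside 10.5%) and 3 below (Atr, Dclre1a and Palb2, beside 11%). Against AOS alone 1 lay above (Faap24, beside 7.24%) and 2 below (Ercc4 and Ube2t, beside 5.63%).

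Repair genes beyond the set were read in the same fit. Of 35 other tested genes of crosslink repair, 11 had a higher and 24 a lower mean in the main effect of busulfan, 0 were called in edgeR and 1 in DESeq2, and 3 were at an unadjusted p under 0.05 (8.57%, beside 17.2% of all genes). Polk, a translesion polymerase, had the smallest p of that list, at 1.58, 1.66 and 1.92 FPKM in control, 2.14, 3.19 and 2.11 with AOS, 2.47, 2.65 and 2.69 with busulfan and 3.01, 2.72 and 2.78 with busulfan plus AOS (main effect 0.33, log2; edgeR adjusted p = 0.155). The 17 checkpoint partners (9 higher, 8 lower) and the 18 genes of excision, alkyl and mismatch repair (6 higher, 12 lower) also had 0 called in edgeR, and 1 and 3 at an unadjusted p under 0.05. Etaa1, an activator of Atr, and Ddb2, a damage sensor of excision repair, had log2 main effects of -0.45 and -0.33 (adjusted p = 0.202 and 0.217 in edgeR). Proliferation markers had 19 of 28 higher, 0 called and 1 at an unadjusted p under 0.05, the topoisomerase Top2a (log2 main effect 0.51, adjusted p = 0.286 in edgeR). Those markers averaged 1.46 to 1.58 log2 CPM in control, 1.40 to 2.06 with AOS, 1.59 to 1.67 with busulfan and 1.61 to 2.12 with busulfan plus AOS.

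The p53 target genes, read in the same libraries as a list known to answer to DNA damage, did contain called genes. This list was chosen with earlier results of these data known, so its called genes are not an independent check. Of 20 tested, 2 rose in the main effect of busulfan (edgeR adjusted p = 0.00656 for Zmat3 and 0.00806 for Eda2r), and 9 higher and 3 lower genes were at an unadjusted p under 0.05. Without control replicate 1 the adjusted p of Eda2r was 0.0517, while Zmat3 passed in all 21 alternatives. Zmat3, an RNA-binding protein, was at 1.04, 1.53 and 1.12 FPKM in control, 1.32, 1.67 and 1.18 with AOS, 2.27, 2.86 and 2.45 with busulfan and 3.33, 2.99 and 3.25 with busulfan plus AOS. Both busulfan groups lay above every library without busulfan, with a main effect of 1.05 on the log2 scale. That list averaged 4.57 to 4.77 log2 CPM with busulfan and 4.64 to 4.85 with busulfan plus AOS, against 4.24 to 4.31 in control and 4.15 to 4.31 with AOS, and the crosslink repair genes 2.64 to 2.66 and 2.59 to 2.65, against 2.50 to 2.60 and 2.46 to 2.67. The difference between the lists was not tested.

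**Figure D4:**
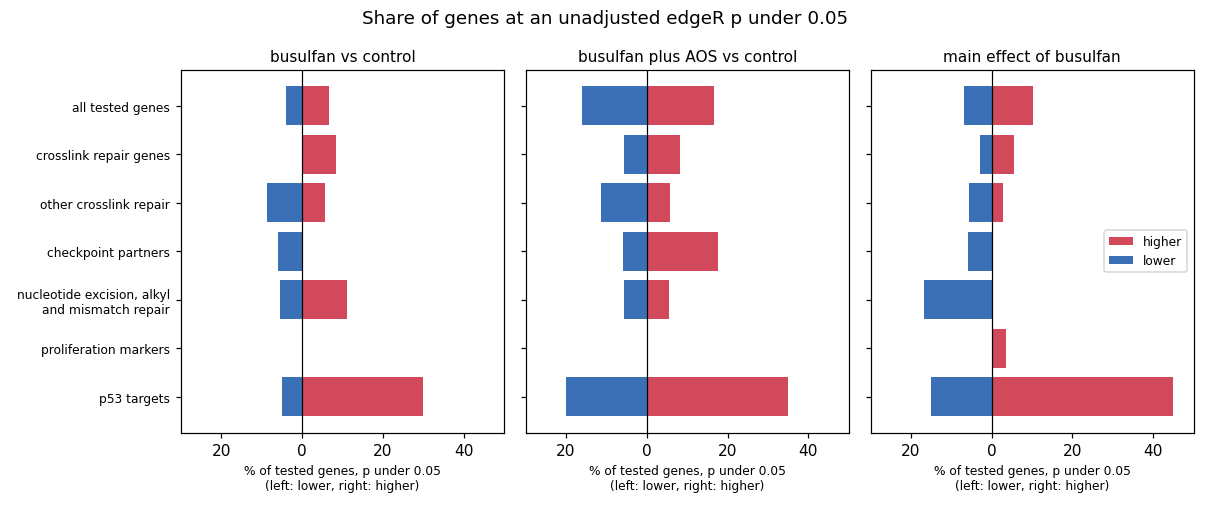
Share of the tested genes of each list at an unadjusted edgeR p under 0.05 (horizontal axis, percent; lower to the left, higher to the right) for busulfan against control, busulfan plus AOS against control and the main effect of busulfan. In the main effect 8.33% of the crosslink repair genes were at such a p, beside 17.2% of all genes and 60% of the p53 targets. The lists were chosen with earlier results of these data known.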

How the data were processed

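A single table of 19246 genes holds the RNA sequencing values of 12 mouse heart libraries, 3 in each of 4 groups. The authors deposited estimated counts per gene and library, and in a library 19.7% to 22.8% of the values are fractional. A second value per gene and library was deposited and was taken as FPKM: for the 1097 genes above 50, the gene length that this reading implies varied between libraries by 0.457% (median). Per the submitters' processing notes, reads were placed on mm10. Which aligner, counter and annotation were used, and whether counting used strand, is not given in the sources used here. Group means that the authors added to the table were left aside. Groups were taken from the titles, with HBA0 read as busulfan alone (B0 in the design text).

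Estimated counts were rounded to whole numbers (library totals then differed by 18.1 or less). edgeR 4.0.16 (R 4.3.3) was run with filterByExpr, TMM scaling, group means over 12 libraries and the quasi-likelihood test, with Benjamini-Hochberg adjustment over 14687 genes and a threshold of 0.05. SEs were derived from each log2 fold change and its F statistic. CPM are on TMM-scaled totals. The common biological coefficient of variation was 29.1%. With 3 against 3 libraries an exact permutation test cannot go below p = 0.1, so none is given. Alternatives used DESeq2 1.42.0 and limma 3.58.1 on log2(FPKM + 0.1) and log2(FPKM + 1), other scalings, no filter, covariates, a replicate block, only the groups compared, and leaving out each library. The scripts were tested on simulated data.

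The members and the gene lists were chosen with earlier results of these data known. Values in every library are given for the 3 genes with the smallest unadjusted p in each comparison and for some that a role needs, such as the highest expressed. The lowest expressed are given as count ranges and means. Up to 4 genes of each other list were followed, by the smallest p in the main effect of busulfan. Of these, Polk and Zmat3 are given in every library. Coordinates and promoter windows are from RefSeq GRCm38.p6 (the mm10 assembly), and exon overlaps from GENCODE M21.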

Additional observations from a re-analysis of the deposited data

How the results depend on the processing

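The count of crosslink repair genes called was 0 in all 152 values over the 22 alternatives and 7 comparisons, and all 695 fold changes followed for 32 pairs of gene and comparison kept their direction and their side of the threshold. The smallest adjusted p was 0.0753 (Palb2, busulfan plus AOS against control, DESeq2), and without control replicate 3 that of Wdr48 was 0.0774. The cause of the moves below in the count over all genes was not tested. For busulfan against control (0 called) the counts were DESeq2 52, limma on log2(FPKM + 1) 1, atrial covariate 127, only the groups compared 3, and 0 to 4 without single libraries. For AOS against control (0) they were DESeq2 8, limma on log2(FPKM + 1) 1 and atrial covariate 3. For busulfan plus AOS against control (45) they were DESeq2 2391, no filter 16, limma 82 and 74 at pseudocounts 0.1 and 1, replicate block 26, atrial covariate 2, proliferation covariate 0, only the groups compared 422, and 0 to 2546 without single libraries. The 2546 were without AOS replicate 2, and 0 were left when replicate 1 of control was dropped, or replicate 1 of the combined treatment. For busulfan plus AOS against busulfan (0) DESeq2 gave 53, and leaving out single libraries 0 to 1. Against AOS (3) DESeq2 gave 155, only the groups compared 1, leaving out single libraries 0 to 1, and library totals, no filter, limma on log2(FPKM + 1), replicate block and both covariates 0. For the main effect (23) they were DESeq2 589, library totals 5, replicate block 5, atrial covariate 350, proliferation covariate 2, and 1 to 345 without single libraries (1 without control replicate 1, 345 without AOS replicate 2). For the interaction (0) DESeq2 gave 5 and the atrial covariate 1. Whether replicate numbers pair the samples is not known from the labels. Of 18 same-number pairs of libraries 6 had a correlation of deviations over 0.1 (range -0.452 to 0.554). These 6 were the pairs of replicates 1 and of replicates 2 among control, AOS and busulfan (0.23 to 0.554). Same-number pairs of replicate 3, or with busulfan plus AOS, were at 0.097 or below. Different-number pairs reached 0.505 (AOS replicate 2 and busulfan plus AOS replicate 1). A shared batch was not tested, and under the replicate block 0 crosslink repair genes were called. The fit with only the groups compared was not run for the main effect and the interaction, which need all groups. Counting error was largest for the genes with the fewest counts, at 57.7% for Eme1 and 39.5% for Fancd2, beside 2.5% for Fancl. A mean under 1 FPKM, found for 15 of 39, does not always mean few counts. Fancm had a mean of 80.9 counts at 0.904 FPKM.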
